A study of Sus scrofa with 45 samples.

Results

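NR1H3, ABCA1, PLTP and APOE are genes of cholesterol efflux under the liver X receptors (LXR), and they were taken from the array as every probe whose gene name, RefSeq transcript or description names one of them. This gave 7 of the 43603 probes on the array, and 4 of the 1866 genes that its annotation names on 2914 probes. NR1H3 has 3 probes, PLTP has 2, and ABCA1 and APOE have 1 each. The ABCA1 probe carries no gene symbol and is named through a description that likens its sequence to the mouse gene.

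Blood RNA of male Clawn miniature pigs, fed from 12 weeks of age, was measured on 45 arrays, each of 1 blood sample. The pigs received standard feed (control), feed high in fat and cholesterol (HFCD) or feed high in fat, cholesterol and sucrose (HFCSD). The 12 groups are whole blood after 10, 19 and 27 weeks of feeding and white blood cells after 27 weeks, on each of the 3 diets. A group has 4 arrays, save whole blood at 19 weeks on HFCSD and at 27 weeks on either HFCD or HFCSD, which have 3. The methods name 15 pigs, 5 per diet, bled repeatedly, so arrays of different weeks and sample types come from the same animals, were treated as independent in the fits, and cannot be matched by pig from the labels. Whole blood RNA came from PAXgene tubes and white blood cell RNA from LeukoLOCK filters.

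Sample type cannot be told apart from kit and scan day, nor week from scan day, since these differ together. A level is the log2 of the processed spot intensity after quantile normalization over all arrays, and a probe is called detected on an array where the scanner software marked it as well above background. Between 35.4% and 53.3% of the spots of an array were detected, and the dimmest detected probe of an array lay at a level between 2.73 and 4.87.

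LXR are nuclear receptors that bind oxidized cholesterol, and NR1H3 encodes LXR-alpha, the form that is abundant in liver, fat and macrophages. Loaded with sterol, they switch on genes that move cholesterol out of the cell: ABCA1, the membrane pump that hands cholesterol and phospholipid to lipid-poor apolipoprotein A-I, PLTP, which transfers phospholipid between lipoproteins, and APOE, a lipoprotein component that macrophages secrete. In blood this pathway is best known from monocytes and the macrophages they become.

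ABCA1 was the member whose level separated every diet array from every control array. The LXR-alpha probe of NR1H3 had a higher mean under both diets at every week and in both sample types, without passing the adjusted test in any diet comparison. PLTP passed the test in whole blood under HFCSD at 27 weeks, a pass that was lost in 4 of 13 other settings and in 5 of 7 fits with 1 array left out. APOE lay at or near background on most arrays. In blood RNA, a change in the number of cells of a type and a change in RNA per cell cannot be told apart.

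At 10 weeks, 1 of 5 tested member probes passed the limma test (Benjamini-Hochberg adjusted p at or under 0.05) for HFCD against control, where 0.0281% of all tested probes passed, and 1 of 5 for HFCSD, where 0.0123% did. At 19 weeks it was 1 of 4 for HFCD (0.0181% of all tested probes) and 1 of 4 for HFCSD (0.0175%). In whole blood at 27 weeks 1 of 5 passed for HFCD (0.0165%) and 2 of 4 for HFCSD (10.6%). The probe in each of these was ABCA1, joined by PLTP in the last. The 10.6% was itself unsteady: without control replicate 1, 2 or 3 it came to 95 of 17149, 217 of 17185 and 159 of 17260 probes, without HFCSD replicate 1 or 2 to 104 of 17346 and 118 of 17287, and without control replicate 4 to 2833 of 19568. With the share of detected spots as a covariate 0 of 17133 passed (2838 at an unadjusted p under 0.05), and with the methods' t-test, adjusted, 142. For white blood cells 1 of 5, again ABCA1, passed for HFCD (0.0276%) and 1 of 5 for HFCSD (0.0366%). The latter share, 7 of 19102 probes, came to 78 with all arrays in 1 fit and to 59 of 19412 without HFCSD replicate 2. Both diets were set against the same control arrays, so their changes share the values of those arrays, and the small number of arrays limits the precision of all of them.

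NR1H3, the receptor, was read by 3 probes. A_72_P228412 lies on a transcript assembly described as LXR-alpha, and the others lie on the RefSeq transcript, A_72_P033031 from base 459 and A_72_P077786 from base 1254. The LXR-alpha probe and the probe at base 1254 were detected on all 45 arrays, and the probe at base 459 on 38. The RefSeq probes are shown because they read 1 transcript at different places and differed in how often they were detected.
NR1H3 A_72_P033031, base 459: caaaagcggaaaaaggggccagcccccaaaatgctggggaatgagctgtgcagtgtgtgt
NR1H3 A_72_P077786, base 1254: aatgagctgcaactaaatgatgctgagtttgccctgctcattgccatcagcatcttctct

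At 10 weeks in whole blood, the LXR-alpha probe read 6.05, 5.87, 5.65 and 6.59 in the control arrays, 7.71, 6.75, 8.02 and 7.77 under HFCD, and 6.25, 7.30, 6.74 and 7.15 under HFCSD. Every HFCD array lay above every control array, while 1 HFCSD array lay among the controls. At 19 weeks it read 5.77, 6.75, 6.45 and 7.29 in the control arrays, 7.50, 7.42, 7.58 and 6.77 under HFCD, and 6.66, 7.62 and 6.88 under HFCSD. Control replicate 4 was high, within the range of both diets, and the groups overlapped. At 27 weeks it read 6.85, 6.66, 6.48 and 6.35 in the control arrays, 7.81, 8.02 and 7.62 under HFCD, and 6.78, 7.34 and 7.66 under HFCSD. HFCD again lay clear of the controls, and HFCSD replicate 1 lay just under the highest control. In white blood cells it read 7.16, 7.52, 7.29 and 7.58 in the control arrays, 8.0, 8.21, 8.67 and 8.23 under HFCD, and 7.32, 7.79, 8.13 and 8.27 under HFCSD. The picture was the same there, with all HFCD arrays above the controls and HFCSD replicate 1 among them.

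**Figure D1:**
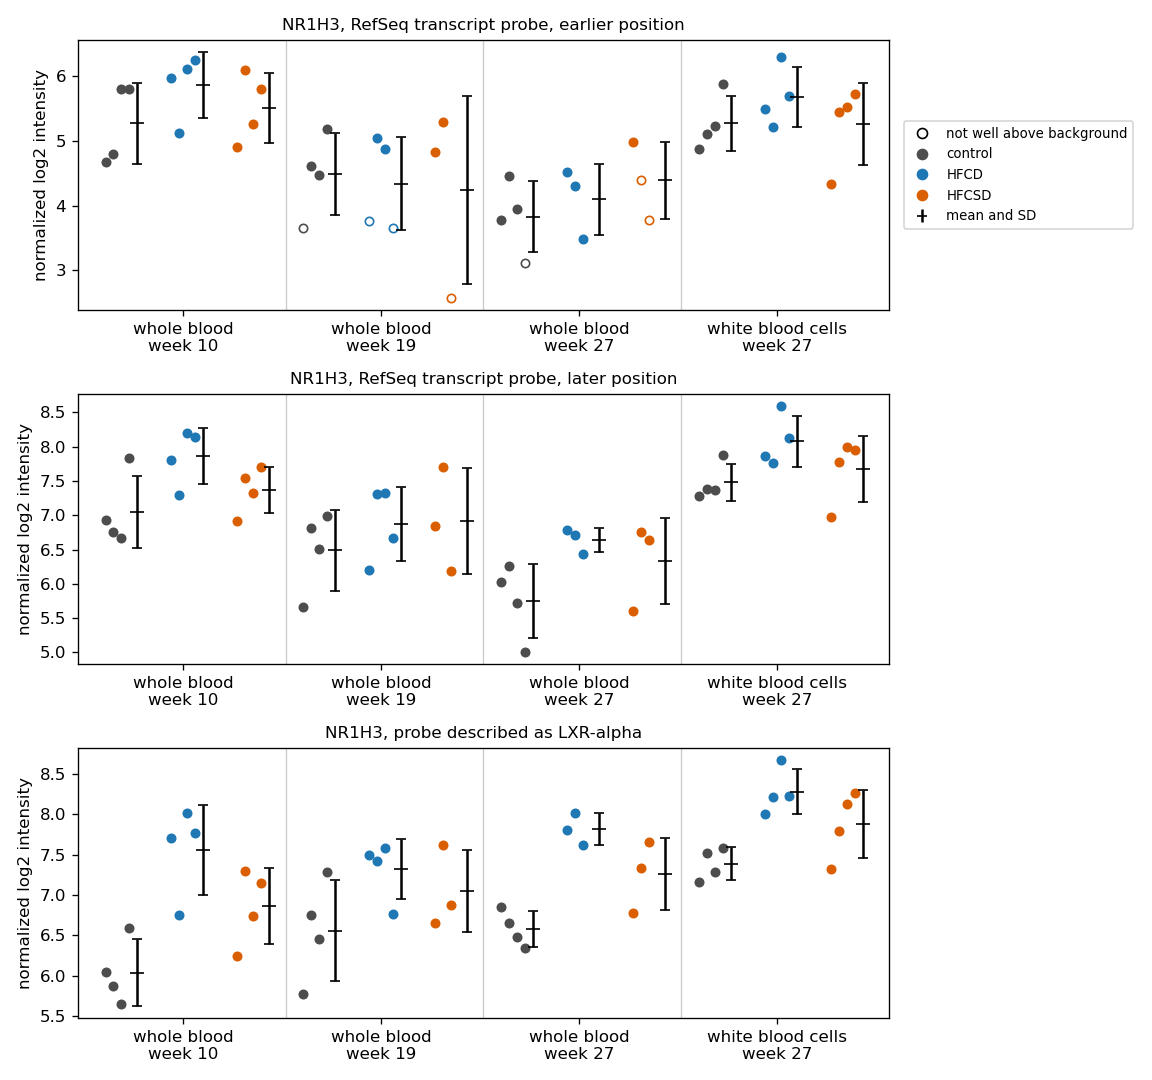
Level (log2 processed signal, quantile normalized) of the 3 NR1H3 probes on each array, by sample type, week of feeding and diet; black bars are the mean and SD of a group, and open points are arrays where the probe was not well above background. For the LXR-alpha probe, control arrays span 5.65 to 7.58 and diet arrays 6.25 to 8.67.

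The mean of the LXR-alpha probe was 6.04 (SD 0.41), 7.56 (SD 0.56) and 6.86 (SD 0.47) at 10 weeks for control, HFCD and HFCSD, and 6.56 (SD 0.63), 7.32 (SD 0.37) and 7.05 (SD 0.51) at 19 weeks. It was 6.58 (SD 0.22), 7.82 (SD 0.20) and 7.26 (SD 0.45) in whole blood at 27 weeks, and 7.39 (SD 0.20), 8.28 (SD 0.28) and 7.88 (SD 0.42) in white blood cells. From high to low the groups ran white blood cells on HFCD and on HFCSD, whole blood on HFCD at 27 and at 10 weeks, white blood cells on control, whole blood on HFCD at 19 weeks, then whole blood on HFCSD at 27, 19 and 10 weeks, then the whole blood controls at 27, 19 and 10 weeks. The arrays of each pair of neighbours in this order overlapped, so no step of it stood beyond the spread.

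Set against control, the LXR-alpha probe was higher by 1.52 (SE 0.31) under HFCD at 10 weeks, with an unadjusted limma p of 0.000382 and an adjusted p of 0.216. It was higher by 1.23 (SE 0.25, adjusted p = 0.785) under HFCD at 27 weeks and by 0.89 (SE 0.23, adjusted p = 0.657) under HFCD in white blood cells. In these comparisons the diet and control arrays did not overlap, yet none passed adjustment over all probes. Under HFCSD the differences were 0.82 at 10 weeks, 0.49 at 19 weeks, 0.67 at 27 weeks and 0.49 in white blood cells, and under HFCD at 19 weeks 0.76, with adjusted p from 0.0968 to 1 and overlapping groups. With limma 0 of 8 diet differences of this probe passed, 5 of 8 had an unadjusted p under 0.05, and with the methods' t-test, adjusted in the same way, 0 of 8 passed. With all 45 arrays in 1 fit the HFCD difference at 10 weeks of NR1H3 A_72_P228412, again 1.52, did pass (adjusted p = 0.0276), the only pass among 106 values under other settings, whose adjusted p ran up to 1.

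The probe at base 1254 had means of 7.05 (SD 0.53), 7.86 (SD 0.41) and 7.37 (SD 0.34) for control, HFCD and HFCSD at 10 weeks, and 6.49 (SD 0.59), 6.87 (SD 0.54) and 6.92 (SD 0.77) at 19 weeks. It had means of 5.75 (SD 0.54), 6.64 (SD 0.18) and 6.33 (SD 0.63) in whole blood at 27 weeks and of 7.48 (SD 0.27), 8.08 (SD 0.37) and 7.67 (SD 0.48) in white blood cells. White blood cells on HFCD stood highest and whole blood controls at 27 weeks lowest, and every pair of neighbours between them overlapped. Its diet differences ran from 0.19 to 0.89, all positive, and 0 of 8 passed with limma, with 3 at an unadjusted p under 0.05. The largest, 0.89 under HFCD in whole blood at 27 weeks (adjusted p = 0.893), was the one whose arrays did not overlap.

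The probe at base 459 was dimmer, with group means from 3.83 (SD 0.55) in whole blood controls at 27 weeks to 5.86 (SD 0.51) under HFCD at 10 weeks, and every pair of neighbours in its order overlapped. For control, HFCD and HFCSD its means were 5.27 (SD 0.62), 5.86 (SD 0.51) and 5.51 (SD 0.54) at 10 weeks and 4.49 (SD 0.63), 4.34 (SD 0.72) and 4.24 (SD 1.45) at 19 weeks. They were 3.83 (SD 0.55), 4.10 (SD 0.55) and 4.39 (SD 0.60) in whole blood at 27 weeks and 5.27 (SD 0.43), 5.68 (SD 0.46) and 5.26 (SD 0.63) in white blood cells. All 7 arrays on which it was not detected were whole blood of 19 or 27 weeks. It could be tested in 5 of 8 diet comparisons, where its differences ran from -0.01 to 0.59, with 0 passing and 0 at an unadjusted p under 0.05. The 3 probes thus gave diet differences of different size for the same gene.

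ABCA1, the pump, was detected on all 45 arrays. At 10 weeks it read 9.63, 9.65, 9.26 and 9.48 in the control arrays, 11.89, 11.28, 12.22 and 12.15 under HFCD, and 11.20, 11.65, 11.39 and 11.69 under HFCSD. The diet arrays all stood far above the controls, and the diets overlapped each other. At 19 weeks it read 9.14, 9.94, 9.94 and 9.54 in the control arrays, 12.32, 11.62, 11.91 and 11.80 under HFCD, and 12.08, 11.90 and 12.03 under HFCSD. The gap to the controls remained, and the HFCSD arrays lay within the range of HFCD. At 27 weeks in whole blood it read 9.92, 10.41, 9.84 and 9.85 in the control arrays, 12.47, 12.33 and 12.49 under HFCD, and 12.23, 12.24 and 12.43 under HFCSD. Control replicate 2 stood above the other controls, still far below both diets. In white blood cells it read 9.75, 10.03, 10.25 and 10.24 in the control arrays, 12.25, 12.66, 12.57 and 12.47 under HFCD, and 12.79, 12.28, 12.63 and 12.70 under HFCSD. Here too both diets lay above the controls and among each other.

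**Figure D2:**
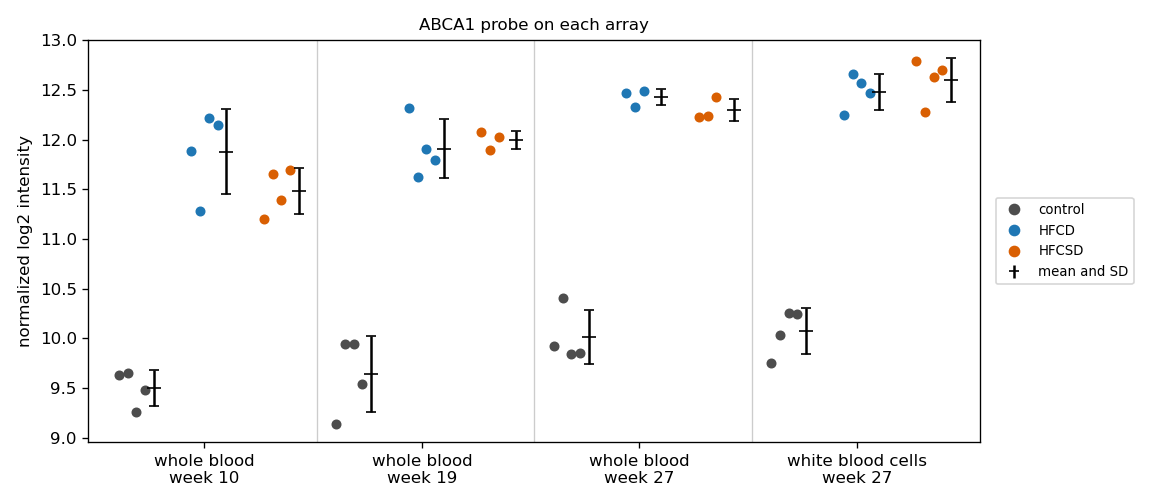
Level (log2 processed signal, quantile normalized) of ABCA1 on each array, by sample type, week of feeding and diet; black bars are the mean and SD of a group. The 16 control arrays lie between 9.14 and 10.41 and the 29 diet arrays between 11.20 and 12.79.

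The mean ABCA1 level for control, HFCD and HFCSD was 9.5 (SD 0.18), 11.88 (SD 0.43) and 11.48 (SD 0.23) at 10 weeks and 9.64 (SD 0.38), 11.91 (SD 0.30) and 12 (SD 0.09) at 19 weeks. It was 10.01 (SD 0.27), 12.43 (SD 0.08) and 12.30 (SD 0.11) in whole blood at 27 weeks, and 10.07 (SD 0.23), 12.48 (SD 0.18) and 12.60 (SD 0.22) in white blood cells. From high to low the groups ran white blood cells on HFCSD and on HFCD, whole blood at 27 weeks on HFCD and on HFCSD, whole blood at 19 weeks on HFCSD and on HFCD, whole blood at 10 weeks on HFCD and on HFCSD, then the controls in white blood cells and in whole blood at 27, 19 and 10 weeks. Neighbours in this order overlapped except at 2 steps. Whole blood on HFCSD at 27 weeks lay above HFCSD at 19 weeks with a difference of means of 0.30, and whole blood on HFCSD at 10 weeks, the lowest diet group, lay above the white blood cell controls with a difference of means of 1.41.

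Against control, ABCA1 rose by 2.38 (SE 0.22) under HFCD and 1.98 (SE 0.21) under HFCSD at 10 weeks, 5.21-fold and 3.94-fold on the linear scale. Among all tested probes it had the smallest p in both. The HFCSD value passed with an adjusted p of 0.0105 and lost its pass without control replicate 2 or 3 or HFCSD replicate 2, 3 or 4, at values for ABCA1 A_72_P079266 of 2.03, 1.90, 1.92, 2.01 and 1.91 and adjusted p from 0.0534 to 0.0707. With the methods' t-test, adjusted over all probes, neither passed (adjusted p = 0.142 and 0.0811), the highest adjusted p among 13 other settings for each. Wherever a pass was lost at 10 weeks, 0 of all tested probes passed.

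At 19 weeks ABCA1 rose by 2.27 (SE 0.24, limma adjusted p = 0.0094) under HFCD and 2.36 (SE 0.27, adjusted p = 0.0234) under HFCSD. All diet arrays and control replicate 1, the lowest control, were scanned on 1 day and the other controls on another. Within that day the differences were 2.77 for HFCD and 2.86 for HFCSD, which are also the values with scan day as a block. Both rest on 1 control array, with the spread taken from the other arrays. With that block the HFCD value did not pass and the HFCSD value did. The HFCD value of ABCA1 A_72_P079266 lost its pass without control replicate 4 (2.24, adjusted p = 0.0716) or HFCD replicate 3 (2.27, adjusted p = 0.0633). The HFCSD value lost it without control replicate 2 or 4 or HFCSD replicate 1, 2 or 3, at 2.46, 2.33, 2.32, 2.41 and 2.35 with adjusted p from 0.0725 to 0.252. Over 14 other settings the adjusted p rose to 0.157 for HFCD, with the methods' t-test, and to 0.452 for HFCSD, with replicate number as a block. Wherever a pass was lost at 19 weeks, 0 of all tested probes passed, save 3 of 18432 for HFCSD without HFCSD replicate 3.

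At 27 weeks in whole blood ABCA1 rose by 2.42 (SE 0.21, limma adjusted p = 0.00207) under HFCD and 2.29 (SE 0.21, adjusted p = 0.00409) under HFCSD. Among all probes tested for HFCSD, 2.8% had a larger rise than ABCA1, against 0.0385% for HFCD. White blood cells had a rise of 2.41 (SE 0.18, adjusted p = 0.000196) and 2.53 (SE 0.18, adjusted p = 0.000146), and 0.0331% and 0.215% of tested probes had a larger rise. No single array left out ended any of these calls. In other settings the highest adjusted p in whole blood was 0.16 for HFCD, with the methods' t-test, and 0.0574 for HFCSD, with the share of detected spots as a covariate. In white blood cells the methods' t-test gave 0.0289 for HFCD and 0.0814 for HFCSD. Wherever a pass was lost at 27 weeks, 0 of all tested probes passed.

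Sucrose added to the fat and cholesterol left no ABCA1 difference that passed. HFCSD minus HFCD was -0.40 (95% interval -0.87 to 0.07, limma adjusted p = 0.809) at 10 weeks and 0.09 (-0.49 to 0.66, adjusted p = 1) at 19 weeks. It was -0.13 (-0.62 to 0.36, adjusted p = 0.788) in whole blood at 27 weeks and 0.11 (-0.27 to 0.50, adjusted p = 1) in white blood cells. The arrays of the diets overlapped in each, and no interval reached a difference as large as the rise over control. No member probe passed in any of these 4 comparisons, where limma passed 0%, 0%, 0.0111% and 0% of all tested probes, with 886, 253, 2259 and 407 at an unadjusted p under 0.05, and the methods' t-test, adjusted, passed 0 in each. The LXR-alpha probe of NR1H3 had a lower mean under HFCSD in each, with differences of -0.70, -0.27, -0.56 and -0.40 and adjusted p from 0.4 to 1.

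ABCA1 rose in white blood cells and in whole blood, and a difference between them was not shown. White blood cells minus whole blood, the rise differed by -0.01 (95% interval -0.55 to 0.53) under HFCD and 0.23 (-0.31 to 0.78) under HFCSD. Neither passed with limma, and the probes that passed were 0% and 1.38% of those tested. The latter, 281 probes, ran from 86 with 75th percentile scaling to 839 with normexp, and from 38 without whole blood HFCSD replicate 1 to 1045 without replicate 3. From 10 to 19 weeks the rise differed by -0.11 (SE 0.29) under HFCD and 0.38 (SE 0.30) under HFCSD, and from 10 to 27 weeks by 0.04 (SE 0.30) and 0.32 (SE 0.30). The adjusted p lay between 0.573 and 0.987, and 0% of tested probes passed in these 4. With scan day as a block the values for 19 weeks came to 0.39 under HFCD, turning sign, and 0.88 under HFCSD (adjusted p = 0.999 and 0.616 for ABCA1 A_72_P079266). No other member passed in these 6 comparisons either: the LXR-alpha probe ran from -0.77 to -0.15, and PLTP from -1.35 to 1.87 (SE 1.05, adjusted p = 0.372), the latter from 10 to 27 weeks under HFCSD.

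Within a diet, the ABCA1 level in whole blood was higher at 27 than at 10 weeks by 0.50 (SE 0.20, limma adjusted p = 0.0789) on control, 0.54 (SE 0.22, adjusted p = 0.155) on HFCD and 0.82 (SE 0.22, adjusted p = 0.0185) on HFCSD. Only the HFCSD value passed, though in all 3 diets the arrays of 27 weeks lay above those of 10 weeks without overlap. Over all member probes 3, 1 and 1 of 5 passed in these comparisons, against 20.7%, 5.60% and 10.3% of all tested probes. These shares hung on single arrays: from 3546 passing probes on control they came to 2356 of 17162 without replicate 1 of 27 weeks, on HFCD from 1057 to 265 of 19115 without replicate 3 of 27 weeks, and on HFCSD from 1702 to 626 of 16807 without replicate 1 of 27 weeks. The HFCSD value of ABCA1 A_72_P079266 did not pass without HFCSD replicate 1 or 3 of 10 weeks or replicate 1 or 3 of 27 weeks, at 0.72, 0.79, 0.85 and 0.75 with adjusted p from 0.0514 to 0.0676. Between 10 and 19 weeks the differences were 0.14 on control, 0.03 on HFCD and 0.52 on HFCSD, with adjusted p of 0.747, 0.94 and 0.141. No member passed there on control, HFCD or HFCSD, against 12%, 6.92% and 7.17% of all tested probes, or 2026, 1228 and 1232. These counts came to 588 on control with scan day as a block, to 318 on HFCD without HFCD replicate 4 of 10 weeks and 2476 without replicate 1 of 19 weeks, and to 235 on HFCSD without replicate 3 of 19 weeks. With scan day as a block the control value turned to -0.36, which rests on control replicate 1, the only control of 19 weeks that was scanned together with the diets.

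The RefSeq probes of NR1H3 ran the other way over time. From 10 to 27 weeks the probe at base 1254 fell by 1.29 on control (SE 0.36, limma adjusted p = 0.0116), and its differences of -1.22 on HFCD (adjusted p = 0.0599) and -1.03 on HFCSD (adjusted p = 0.0841) did not pass. On each diet its arrays of 27 weeks lay below those of 10 weeks. The HFCD value of NR1H3 A_72_P077786 passed with normexp (-0.81, adjusted p = 0.037), with scan day as a block (-1.22, adjusted p = 0.0453) and without HFCD replicate 2 of 10 weeks (-1.41, adjusted p = 0.0435), among 7 other settings with adjusted p up to 0.077. The pass on control was lost without control replicate 4 of 10 weeks (-1.03, adjusted p = 0.0603 for NR1H3 A_72_P077786) or of 27 weeks (-1.05, adjusted p = 0.0551). The probe at base 459, detected on all HFCD arrays of these weeks, fell by 1.76 on HFCD (SE 0.52, adjusted p = 0.0421), again without overlap. On control it was not detected on 1 of 4 arrays of 27 weeks, so its value there, -1.44 (SE 0.48, adjusted p = 0.0327), rests partly on background and is no measured size, and on HFCSD it was detected on 1 of 3. Its control value lost its pass in 5 of 8 fits with 1 array left out, which gave -1.65 to -1.21, and its HFCD value in 6 of 7, which gave -2.01 to -1.45. On control the arrays were replicates 3 and 4 of 10 weeks and 1, 3 and 4 of 27 weeks (NR1H3 A_72_P033031: -1.27, -1.26, -1.43, -1.48 and -1.21), and on HFCD replicates 1, 3 and 4 of 10 weeks and 1, 2 and 3 of 27 weeks (-1.72, -1.67, -1.63, -1.97, -1.86 and -1.45). With normexp background correction the control value was -0.38 (adjusted p = 0.103), with slide as a random block it was -1.37 (adjusted p = 0.0642), and the HFCD value reached at most an adjusted p of 0.0618 over 7 other settings. From 10 to 19 weeks on HFCD this probe was detected on 2 of 4 arrays of 19 weeks and did not pass (adjusted p = 0.0504), while 4 other settings and 2 fits with 1 array left out gained a pass that rests partly on background. The LXR-alpha probe differed by -0.24 to 0.55 between weeks, and none of its 6 values passed (adjusted p from 0.211 to 0.757).

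Between sample types at 27 weeks, ABCA1 differed little: white blood cells minus whole blood was 0.06 (SE 0.17) on control, 0.06 (SE 0.19) on HFCD and 0.30 (SE 0.19) on HFCSD, with limma adjusted p of 0.789, 0.827 and 0.182. NR1H3 was higher in white blood cells. Its probe at base 1254 was higher by 1.73 (SE 0.30), 1.44 (SE 0.33) and 1.34 (SE 0.33), adjusted p 0.000139, 0.00145 and 0.00188, with no overlap on any diet. The LXR-alpha probe was higher by 0.80 (adjusted p = 0.0076, no overlap) on control and 0.62 (adjusted p = 0.038, overlap) on HFCSD, and its 0.46 on HFCD did not pass (adjusted p = 0.132). The probe at base 459 was higher by 1.58 on HFCD (adjusted p = 0.00295), where it was detected on all arrays. It also passed on control, with 3 of 4 whole blood arrays detected, and did not on HFCSD, with 1 of 3 detected, save in 2 fits with 1 array left out, so these 2 differences rest partly on background and have no measured size. Of the 5 tested member probes 3, 2 and 2 passed on control, HFCD and HFCSD, all of them NR1H3, against 45.3%, 47.5% and 58.8% of all tested probes, which is close to the background. The HFCSD pass of NR1H3 A_72_P228412 was lost without replicate 1 or 2 of whole blood (0.38 and 0.66) or replicate 2, 3 or 4 of white blood cells (0.65, 0.53 and 0.49), and its HFCD value passed with 75th percentile scaling (0.72, adjusted p = 0.0283).

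**Figure D3:**
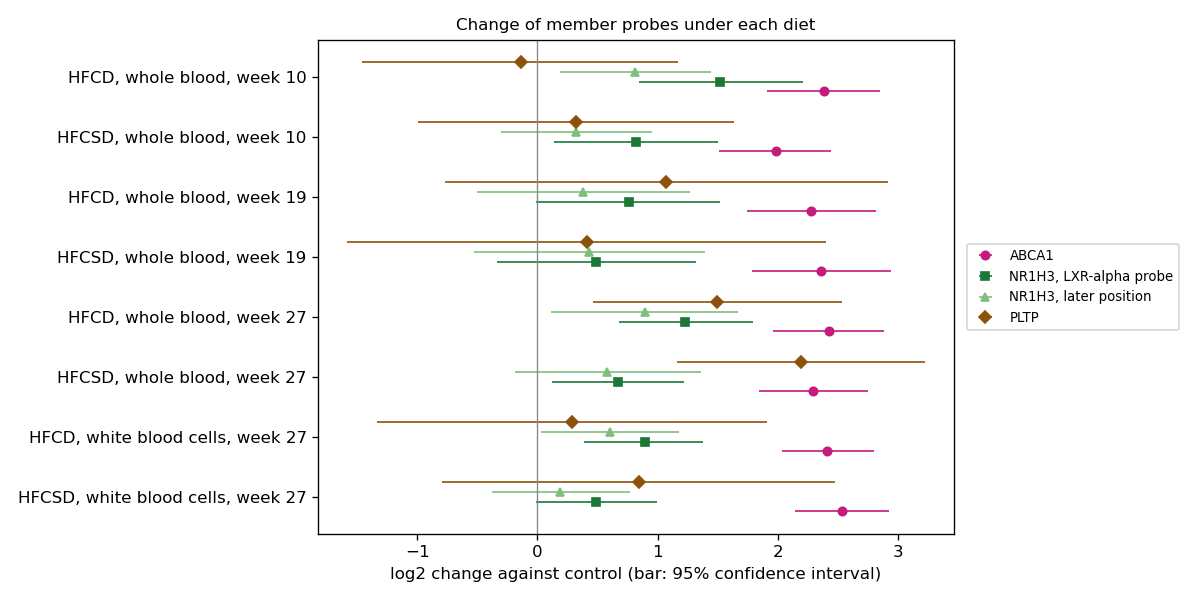
Log2 difference against control (point) with its 95% interval (bar) for ABCA1, the LXR-alpha and base 1254 probes of NR1H3 and the base 1335 probe of PLTP, under each diet in each sample type and week. The 8 ABCA1 values lie between 1.98 and 2.53, and those of the LXR-alpha probe between 0.49 and 1.52.

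PLTP, the phospholipid transfer protein, was read by probes from base 468 and base 1335 of its transcript, shown because 1 was detected on all 45 arrays and the other on 4.
PLTP A_72_P103731, base 468: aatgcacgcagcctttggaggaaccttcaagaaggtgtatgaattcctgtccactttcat
PLTP A_72_P035351, base 1335: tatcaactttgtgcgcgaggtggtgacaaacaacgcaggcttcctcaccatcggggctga
The probe at base 468 lay between 1.36 and 4.43, with a median of 1.87. It was detected in white blood cells alone, on control replicate 3 (3.80), HFCD replicate 1 (4.06) and HFCSD replicates 1 and 2 (4.43 and 4.22). It entered 0 of 27 comparisons, so the values below are those of the probe at base 1335.

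At 10 weeks PLTP read 6.18, 8.96, 8.86 and 7.89 in the control arrays, 7.04, 9.06, 8.21 and 7.02 under HFCD, and 8.41, 8.88, 7.75 and 8.14 under HFCSD. The diets lay within the range of the controls, whose replicate 1 was low, apart from HFCD replicate 2 just above it. At 19 weeks it read 7.75, 5.69, 6.43 and 5.75 in the control arrays, 4.49, 8.50, 7.88 and 9.03 under HFCD, and 7.12, 6.74 and 6.58 under HFCSD. HFCD replicate 1 was the lowest array of that week and HFCD replicate 4 the highest. At 27 weeks in whole blood it read 6.14, 5.48, 4.98 and 6.10 in the control arrays, 6.07, 7.78 and 7.65 under HFCD, and 7.42, 8.55 and 7.63 under HFCSD. All HFCSD arrays lay above all controls, and HFCD replicate 1 lay among the controls. In white blood cells it read 3.84, 5.98, 6.40 and 6.03 in the control arrays, 6.50, 4.04, 6.07 and 6.80 under HFCD, and 7.52, 7.36, 5.48 and 5.25 under HFCSD. These groups overlapped widely.

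**Figure D4:**
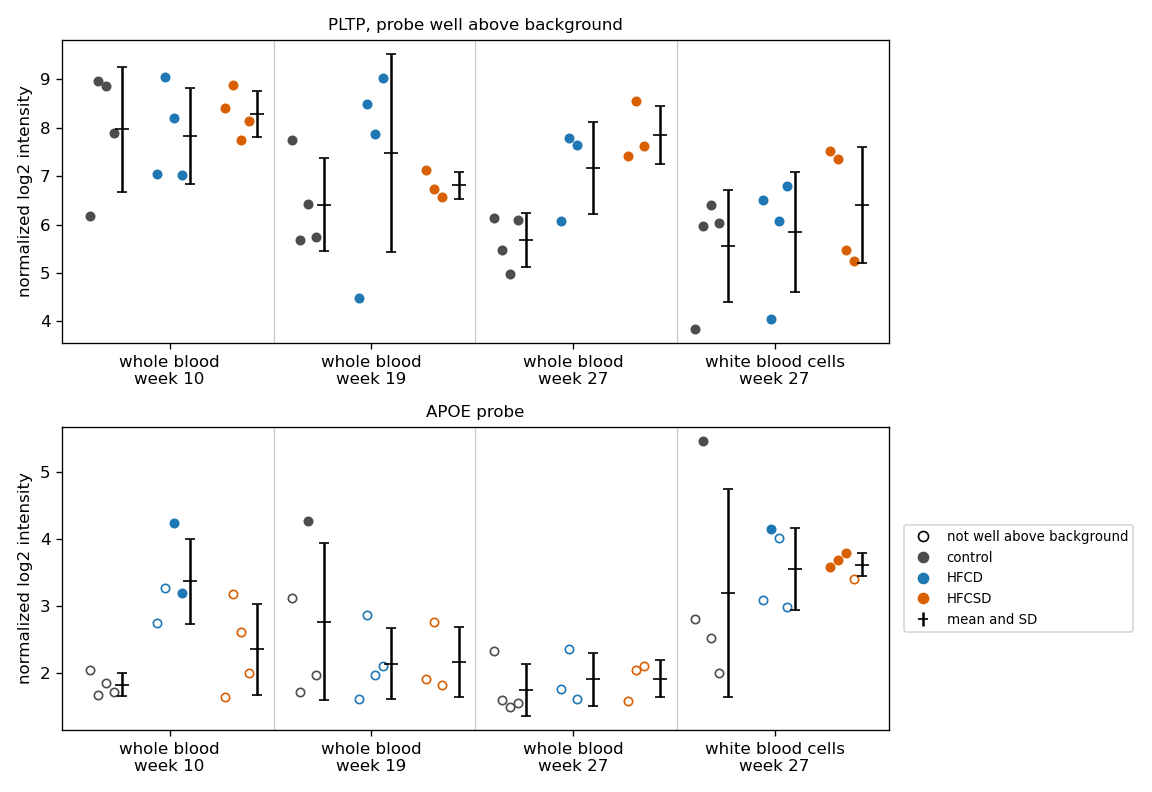
Level (log2 processed signal, quantile normalized) of the PLTP probe at base 1335 and the APOE probe on each array, by sample type, week of feeding and diet; black bars are the mean and SD of a group, and open points are arrays where the probe was not well above background. The PLTP probe at base 1335 spans 3.84 to 9.06, and APOE was well above background on 8 of 45 arrays.

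The mean PLTP level for control, HFCD and HFCSD was 7.97 (SD 1.29), 7.83 (SD 0.99) and 8.29 (SD 0.48) at 10 weeks and 6.41 (SD 0.96), 7.48 (SD 2.05) and 6.81 (SD 0.28) at 19 weeks. It was 5.68 (SD 0.56), 7.17 (SD 0.95) and 7.86 (SD 0.60) in whole blood at 27 weeks and 5.56 (SD 1.16), 5.85 (SD 1.24) and 6.40 (SD 1.20) in white blood cells. From high to low the groups ran whole blood on HFCSD and on control at 10 weeks, on HFCSD at 27, on HFCD at 10, 19 and 27, on HFCSD and on control at 19 weeks, white blood cells on HFCSD and on HFCD, whole blood controls at 27 weeks and white blood cell controls. Every pair of neighbours overlapped. The spread within groups of PLTP reached 2.05, far above that of ABCA1, whose largest was 0.43.

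PLTP rose by 2.19 (SE 0.47, 95% interval 1.16 to 3.22, limma adjusted p = 0.0241) under HFCSD in whole blood at 27 weeks, 4.56-fold, with 3 of 3 HFCSD arrays above 4 of 4 controls. Under HFCD at the same week the difference was 1.49 (SE 0.47, adjusted p = 0.893) and did not pass. HFCSD minus HFCD, 0.70, did not pass either (adjusted p = 0.501), so the diets were not shown to differ. The other differences from control ran from -0.14 under HFCD at 10 weeks to 1.07 (SE 0.84) under HFCD at 19 weeks, with none passing. At 19 weeks, within the scan day shared by control replicate 1 and all diet arrays, they were -0.27 for HFCD and -0.94 for HFCSD, against 1.07 and 0.41 over all arrays.

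The HFCSD arrays at 27 weeks also had fewer detected spots, 38.8% to 39.7%, than the controls, 38.9% to 50.2%, and with this share as a covariate PLTP A_72_P035351 had a value of 1.65 (adjusted p = 0.237). The pass was also lost with no filter on dim probes (adjusted p = 0.064), with the methods' t-test (0.0752) and with all 45 arrays in 1 fit (0.0657), and it held in 9 of 13 other settings, whose highest adjusted p was 0.237. It was lost without control replicate 1, 2 or 3 (2.35, 2.12 and 1.96) or HFCSD replicate 1 or 2 (2.41 and 1.85), at adjusted p from 0.0608 to 0.0755. Among markers of platelets and white cells in this comparison, where 10.6% of all tested probes passed, 1 of 6 platelet genes was higher, and 0 of 9 monocyte, 0 of 5 neutrophil, 0 of 7 T cell and 0 of 2 B cell genes passed with limma, with 1, 1, 2 and 1 of them at an unadjusted p under 0.05. The summed neutrophil level, with ARG1 the brightest gene, was higher under HFCSD (15.69 to 15.95) than on control (14.41 to 15.55) without overlap. The summed platelet level, with PF4 the brightest gene, had a lower mean under HFCSD, 14.48 (SD 1.02) against 15.15 (SD 0.16), and the list's median difference was -1.15. Red cell markers are not reported, so the cell types named are not complete, and the part of cell composition in the PLTP value was not tested.

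Over time on the control diet PLTP fell by 2.30 (SE 0.71, limma adjusted p = 0.0236) from 10 to 27 weeks in whole blood, without overlap. It differed by -1.57 from 10 to 19 weeks (adjusted p = 0.163), by -0.67 and -0.36 under HFCD and by -0.43 and -1.48 under HFCSD at 27 and 19 weeks, none of which passed. The value from 10 to 19 weeks on control passed without control replicate 1 of 10 weeks (-2.17, adjusted p = 0.0477). Without control replicate 2 or 3 of 10 weeks or replicate 3 of 27 weeks the control value of PLTP A_72_P035351 did not pass, at -1.97, -2.0 and -2.07 with adjusted p from 0.0673 to 0.0844. The whole blood control at 27 weeks, the reference of the HFCSD rise, was thus the lowest PLTP group of whole blood. White blood cells minus whole blood, PLTP differed by -0.11 on control, -1.31 on HFCD and -1.46 on HFCSD (adjusted p from 0.0845 to 0.902), with none passing. The HFCSD value passed with normexp background correction (-0.85, adjusted p = 0.0463 for PLTP A_72_P035351) and without white blood cell replicate 1 (-1.83, adjusted p = 0.0429), and ran up to an adjusted p of 0.973 for PLTP over the other settings of these comparisons.

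APOE was detected on 8 of 45 arrays and entered 0 of 27 comparisons, so its values are levels near background and carry no fold change. Its only probe starts at base 35 of the transcript, and no other place of it was read. In whole blood the 3 arrays were HFCD replicates 3 and 4 at 10 weeks (4.25 and 3.20) and control replicate 3 at 19 weeks (4.28). The white blood cell arrays were control replicate 2 (5.47), HFCD replicate 2 (4.16) and HFCSD replicates 1, 2 and 3 (3.58, 3.69 and 3.79). A larger share of white blood cell arrays than of whole blood arrays was therefore above background, and each diet had such arrays. Over all arrays APOE lay between 1.49 and 5.47, with a median of 2.33. Its group means for control, HFCD and HFCSD were 1.83, 3.37 and 2.36 at 10 weeks, 2.77, 2.14 and 2.17 at 19 weeks, 1.75, 1.91 and 1.92 in whole blood at 27 weeks, and 3.20, 3.56 and 3.62 in white blood cells.

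The probes most like ABCA1 were found by Pearson correlation over the 45 arrays, each array set against the mean of its sample type and week, among 12093 probes detected on all arrays. Among the closest genes were RSAD2 (r = 0.79), C1R (0.76), LGALS9 (0.75) and the LXR-alpha probe of NR1H3 (0.75), against a median r of 0.03. Since ABCA1 is high on all diet arrays, these values hold what the diets share. Set against the mean of each diet group, they were 0.34, 0.28, 0.10 and 0.47, a measure chosen after the data were seen. A probe without a gene name, A_72_P072951, followed ABCA1 most closely, with r = 0.96, and 0.70 within diet groups.

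Among probes with a gene name, the LXR-alpha probe was most like C2 (r = 0.93), C1R (0.86), the NR1H3 probe at base 1254 (0.84), SCARB2 (0.83) and MX1 (0.77). Within diet groups these were 0.87, 0.69, 0.80, 0.67 and 0.45. The named probes most like the NR1H3 probe at base 1254 were in turn the LXR-alpha probe, then C2, CTSB, LRPAP1 and AKR1A1, each of these 4 with r = 0.81, while the unnamed A_72_P163186 (0.89) and A_72_P370538 (0.86) lay closer than all of them. The probe at base 459 was closest to the unnamed A_72_P255387 (0.87), and among named probes to PDXK (0.80), SIRT2 (0.78), LRPAP1 and AKR1A1 (0.76 each) and SLA-7 (0.75), and it followed the probe at base 1254 with r = 0.70 and the LXR-alpha probe with r = 0.51. PLTP stood apart from the other members, among named probes most like DNASE1L1 (0.84), SMTN (0.81), PNPLA2 (0.80), CXCR3 (0.76) and SLC5A10 (0.75). Its correlation with ABCA1 was 0.27, and -0.39 within diet groups. The arrays share slides and scan days, and the correlations carry no test.

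Of a list of 27 LXR targets and receptors, 15 are named on the array, and 3 of these, ABCG5, ABCG8 and LPL, were detected on no array. For HFCD against control 1 of 11 tested genes passed at 10 weeks, 1 of 10 at 19 weeks, 1 of 10 in whole blood at 27 weeks and 1 of 11 in white blood cells, in each the gene ABCA1. For HFCSD it was 1 of 11, 1 of 10, 3 of 10 and 1 of 11, all higher. All tested probes passed at 10.6% in the comparison with 3 of 10, and at under 0.04% in the others. The 3 were ABCA1, PLTP and SREBF1, the sterol-regulated transcription factor gene, 1 of whose probes rose by 2.86 (SE 0.53, adjusted p = 0.0195) and the other of which was higher by 4.00 (SE 1.26, adjusted p = 0.0644). With no filter on dim probes 1 gene of the list passed, with 1 array left out 1 to 3 did, and with the share of detected spots as a covariate 0 of all 17133 tested probes passed (2838 at an unadjusted p under 0.05). The median difference of the list in that comparison was 0.58, against -0.21 over all tested probes, and under HFCD at the same week 0.67 against -0.03. In the other 6 diet comparisons it lay between 0.04 and 0.32, against -0.03 to 0.09 over all tested probes. Between HFCSD and HFCD 0 of 10 or 11 genes passed with limma in each of 4 comparisons, and 1, 0, 1 and 0 had an unadjusted p under 0.05.

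A list of sterol synthesis and uptake has 11 genes named on the array. Among its genes that passed under HFCSD in whole blood at 27 weeks, where 10.6% of all tested probes passed, SQLE fell by 2.25 (adjusted p = 0.00717). MVK fell by 0.97 on 1 of 2 probes (adjusted p = 0.0324), and the probes of MSMO1 stood at -2.15 and -1.75 (adjusted p = 0.0359 and 0.0242). These passes depend on the settings: with no filter on dim probes 1 gene of the list passed, with 1 array left out 1 to 6 did, and with the share of detected spots as a covariate none of the tested probes of the array passed. The HFCSD means behind the MSMO1 value of -2.15, 3.61 (SD 1.48), and the MVK value, 4.60 (SD 0.44), were low. Both lay within 2.73 to 4.87, the levels of the dimmest detected probe of an array. These probes were detected on 40 and 41 of 45 arrays, so both values may rest partly on background. In white blood cells SQLE passed under HFCD (-1.48, adjusted p = 0.0377) and HFCSD (-1.62, adjusted p = 0.0185), the only gene of 9 and of 8. Of all tested probes 0.0276% and 0.0366% passed there. With the methods' t-test, adjusted, 0 of 19102 probes passed for HFCSD in white blood cells, so that pass was lost. In the other 5 diet comparisons 0 of 8 passed with limma and 2 or 3 had an unadjusted p under 0.05, with SQLE at -1.44 to -1.72. Of all tested probes 0.0123% to 0.0281% passed in these 5.

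A list of cholesterol transport and storage, with 17 genes on the array, gave passes under HFCSD in whole blood at 27 weeks for 3 of 10 genes (list median -0.10, against -0.21 over all tested probes, of which 10.6% passed) and for 0 of 9 or 10 with limma in the other 7 diet comparisons, where 0 to 3 had an unadjusted p under 0.05. CES1, a carboxylesterase, rose by 1.94 (adjusted p = 0.036), TSPO, a mitochondrial membrane protein, fell by 0.73 (adjusted p = 0.0479), and CD36, a scavenger receptor, fell by 1.57 on 1 of 4 probes (adjusted p = 0.0343), the others standing at -0.91, -1.24 and -1.05 without a pass. With no filter on dim probes 0 of these genes passed, and with 1 array left out 0 to 4. In the other 7 diet comparisons 0.0123% to 0.0366% of all tested probes passed, so a count of 0 says little about the list.

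Monocyte and macrophage markers were read beside ABCA1, since the pathway is best known from these cells. Which cells of these samples carry ABCA1 was not tested. Of 20 markers 13 are named on the array, 9 were detected on all arrays, FCGR3A was the brightest at 14.03, and VCAN was detected on none. In each of the 8 diet comparisons, where ABCA1 rose, 0 of 9 to 11 tested markers passed with limma, and 0 to 2 had an unadjusted p under 0.05. Of all tested probes 0.0123% to 0.0366% passed in 7 of these comparisons and 10.6% in whole blood under HFCSD at 27 weeks, so in the 7 a count of 0 says little about the markers. The summed level of the list for control, HFCD and HFCSD was 14.69 (SD 0.42), 14.96 (SD 0.31) and 14.68 (SD 0.36) at 10 weeks, and 14.96, 14.87 and 15.18 at 19 weeks. It was 15.21 (SD 0.23), 15.31 (SD 0.27) and 14.85 (SD 0.38) in whole blood at 27 weeks and 15.90 (SD 0.55), 15.94 (SD 0.24) and 15.65 (SD 0.44) in white blood cells. The diet groups overlapped the controls in each. Other cell types did not all stay level: the summed platelet level was lower without overlap under HFCD at 10 weeks (14.09 to 14.29, against 14.54 to 15.23 on control) and under HFCD at 27 weeks in whole blood (14.43 with SD 0.35 on average, against 15.15 with SD 0.16), and the summed T cell level was higher without overlap under HFCSD at 19 weeks (13.05 to 13.40, against 12.71 to 13.01). So was the summed neutrophil level under HFCSD in whole blood at 27 weeks (15.69 to 15.95, against 14.41 to 15.55). Between sample types, where NR1H3 was higher in white blood cells, 7, 8 and 6 of 11 monocyte markers and 7, 4 and 6 of 8 T cell markers were higher too on control, HFCD and HFCSD. Of all tested probes 4641 of 19020, 4955 of 19413 and 7312 of 19686 were higher there. The summed neutrophil level had a lower mean in white blood cells than in whole blood on each diet. It was 14.35 against 14.93 on control, 14.82 against 15.47 on HFCD and 14.60 against 15.85 on HFCSD, the last without overlap. Red cell markers are not reported here either, so the cell types named are not complete. The part of cell composition in the ABCA1 and NR1H3 differences was not tested.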

How the data were processed

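RNA of whole blood and white blood cells was read on 45 Agilent porcine arrays in 1 colour. The authors deposited the spot intensity that Feature Extraction wrote (version 10.5.1.1 per the file headers), with the background subtracted within each array and no normalization between arrays. For an alternative, the deposited series table, linear intensity after the authors' own quantile normalization, was taken as log2. Otherwise log2 was taken of the processed intensity of 43803 probe spots per array, and quantile normalization was applied across the 45 arrays. Spots marked as outliers (1 to 31 per array) were left out, spots of a probe were averaged, and 1417 control spots were not used. No array was left out, and 0 columns of the labels went unused.

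Probes were named from the RefSeq transcript, gene name or description that the array annotation gives. A probe entered a comparison if every usable array of at least 1 compared group had it well above background, with at least 2 usable arrays per group. Groups follow the labels (sample type, week, diet). Diet comparisons were fitted on the 3 diets of 1 sample type and week, sample types on the 6 groups of week 27, and weeks on the 9 whole blood groups, 27 comparisons in all, with limma 3.58.1 in R 4.3.3, two-sided, Benjamini-Hochberg adjusted over all tested probes at 0.05. The fits were also tested on simulated data. Figures used matplotlib 3.10.9, and the rest Python 3.11.15, scipy 1.17.1, pandas 2.3.3 and numpy 2.4.6. The number of arrays sets the precision, and repeated samples of the same pigs were treated as independent.

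Alternatives were 75th percentile scaling, quantile normalization over the arrays of the fit, normexp with offset 50, the deposited series table, the weaker detection flag, no filter, probes well above background on every array, replicate number, slide or scan day as a block, the share of detected spots as a covariate, the methods' t-test with adjustment, a fit of all arrays, a fit of only the compared groups, and each array left out. Likeness against the mean of each diet group was chosen after seeing the data.

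Members and lists were chosen with earlier results of these data known. Named are all member probes, the list genes that passed in a comparison described, otherwise the 3 tested with the largest absolute change, the brightest and defining markers of cell type lists, and for likeness the 5 named genes and at most 2 unnamed probes with the highest correlation. Some genes that this rule names are not reported.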

Additional observations from a re-analysis of the deposited data

Results flagged for a closer look

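Of 63 sets of 4 arrays, each a member probe in a group, 3 held an array far from the others of its group, and chance gives such an array in about 1 in 20 groups. The measure is the gap of the highest or lowest array to the nearest of the others, divided by the range of the group, above the 95% critical value of Dixon's test. ABCA1 in whole blood on control at 27 weeks was highest on replicate 2, at 10.41 against 9.84 to 9.92 (gap over range 0.866), and still lay below every diet array. PLTP in white blood cells on control was lowest on replicate 1, at 3.84 against 5.98 to 6.40 (0.839). APOE in whole blood on control at 27 weeks was highest on replicate 1, at 2.33 against 1.49 to 1.60 (0.874), and none of these APOE values was well above background. Groups of 3 arrays were not examined in this way. The cause was not tested.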

How the results depend on the processing

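Against control, ABCA1 stayed higher in all 106 values under other settings (1.88 to 2.86, of which 91 passed) and in all 61 with 1 array left out (1.90 to 2.63, of which 49 passed, highest adjusted p 0.252). The passes of ABCA1 that were lost follow as log2 value and adjusted p. Wherever another setting lost such a pass, 0 of all tested probes of that comparison passed.

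With the methods' t-test they were HFCD 2.38 (0.142) and HFCSD 1.98 (0.0811) at 10 weeks, HFCD 2.27 (0.157) and HFCSD 2.36 (0.166) at 19 weeks, HFCD 2.42 (0.16) in whole blood at 27 weeks, and HFCSD 2.53 (0.0814) in white blood cells. With scan day as a block it was HFCD 2.77 (0.0653) at 19 weeks. With the share of detected spots as a covariate they were HFCD 2.29 (0.0545) at 19 weeks and HFCSD 2.47 (0.0574) in whole blood at 27 weeks. HFCSD at 19 weeks was also lost with 75th percentile scaling, 2.27 (0.0751), with no filter, 2.36 (0.0716), and with the weaker detection flag, 2.36 (0.0522). ABCA1 gained a pass in 1 value, on control from 10 to 27 weeks with 75th percentile scaling, 0.65 (0.0377). The highest adjusted p over all settings was 0.452. The cause was not tested.

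With the replicate block, ABCA1 lost its pass for HFCD 2.27 (0.151) and HFCSD 2.33 (0.452) at 19 weeks and HFCD 2.37 (0.137) in whole blood at 27 weeks, and kept it in the other 5 diet comparisons. Correlations between arrays of the same replicate number were lowest at -0.64 to -0.23 and had means of -0.13 to 0.21. Between weeks these means were 0.20, 0.18 and 0.20, against -0.07, -0.06 and -0.07 for arrays of other numbers, and between sample types 0.08 against -0.03. Since the numbers do not establish which arrays share a pig, they were not treated as pairs. The cause was not tested.

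With 1 array left out, ABCA1 ranged from 1.90 to 2.07 for HFCSD at 10 weeks, 2.11 to 2.37 for HFCD and 2.19 to 2.46 for HFCSD at 19 weeks, and 0.72 to 0.89 from 10 to 27 weeks on HFCSD, each with passes lost. In the diet comparisons 0 of all tested probes passed in the fits that lost the ABCA1 pass, with 1 exception. For HFCSD at 19 weeks without HFCSD replicate 3, 3 of 18432 passed.

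The values that turned sign follow. None had passed, and none passed after turning. With the share of detected spots as a covariate, PLTP turned to 0.81 for HFCD at 10 weeks and -0.11 for HFCSD minus HFCD at 10 weeks. NR1H3 at base 1254 turned to -0.16 and 0.27 for HFCSD minus HFCD at 19 weeks and in whole blood at 27 weeks, where ABCA1 turned to 0.05. NR1H3 at base 459 turned to -0.02 for HFCD and 0.00 for HFCSD minus HFCD in white blood cells.

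With scan day as a block, PLTP turned to -0.27 for HFCD and -0.94 for HFCSD at 19 weeks. In the difference of the HFCD change between 10 and 19 weeks, NR1H3 turned to 0.09 (base 459), 0.40 (base 1254) and 0.03 (LXR-alpha probe), ABCA1 to 0.39 and PLTP to -0.13. In that of HFCSD, NR1H3 turned to 0.34 (base 459) and 0.46 (LXR-alpha probe) and PLTP to -1.26. From 10 to 19 weeks on control, the LXR-alpha probe turned to -0.27 and ABCA1 to -0.36.

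With normexp, HFCSD minus HFCD turned to -0.01 for ABCA1 at 19 weeks and -0.01 for NR1H3 at base 459 in whole blood at 27 weeks, and HFCSD in white blood cells to 0.00 for base 459. Between white blood cells and whole blood the HFCD change turned to 0.07 for base 1254 and 0.04 for ABCA1, and the HFCSD change to 0.03 for the LXR-alpha probe. Between 10 and 19 weeks ABCA1 turned to 0.03 under HFCD and PLTP to -0.02 under HFCSD. Between 10 and 27 weeks base 1254 turned to -0.14 under HFCD and -0.02 under HFCSD, and base 459 to -0.05 under HFCSD.

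With 75th percentile scaling, ABCA1 turned to 0.08 for HFCSD minus HFCD in whole blood at 27 weeks, 0.08 for the HFCD change between sample types and -0.02 for that between 10 and 27 weeks. With slide as a random block these HFCD changes of ABCA1 were 0.00 and -0.01, and that of base 1254 between 10 and 27 weeks was -0.05.

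Leaving out 1 array also turned values without a pass, given as lowest to highest. For PLTP they were -0.74 to 0.19 for HFCD and -0.28 to 0.65 for HFCSD at 10 weeks, -0.28 to 0.90 for HFCD and -0.06 to 0.93 for HFCSD minus HFCD in white blood cells, -0.39 to 0.46 between sample types on control, -0.88 to 0.64 from 10 to 19 weeks on HFCD, and -0.24 to 0.69 for the HFCSD change between those weeks. For ABCA1 they were -0.01 to 0.22 for HFCSD minus HFCD at 19 weeks, -0.14 to 0.07 for the HFCD change between sample types, -0.00 to 0.13 between sample types on HFCD, -0.31 to 0.00 and -0.16 to 0.18 for the HFCD change from 10 to 19 and to 27 weeks, and -0.17 to 0.14 from 10 to 19 weeks on HFCD.

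For NR1H3 at base 1254 they were -0.36 to 0.41 and -0.51 to 0.06 for HFCSD minus HFCD at 19 weeks and in whole blood at 27 weeks, -0.30 to 0.47 and -0.00 to 0.62 for the HFCSD change from 10 to 19 and to 27 weeks, and -0.19 to 0.24 for the HFCD change from 10 to 27 weeks. For base 459 they were -0.03 to 0.59 for HFCSD minus HFCD in whole blood at 27 weeks, -0.17 to 0.29 for HFCSD in white blood cells, -0.18 to 0.37 for the HFCD change between sample types and -1.02 to 0.34 for the HFCSD change from 10 to 19 weeks. For the LXR-alpha probe they were -0.42 to 0.02 for the HFCSD change between sample types, -0.35 to 0.09 for that from 10 to 27 weeks, -0.02 to 0.40 from 10 to 27 weeks on HFCD and -0.09 to 0.39 from 10 to 19 weeks on HFCSD. The cause was not tested.

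Scan day as a block could not be fitted at 27 weeks, where scan day and sample type coincide, and at 10 weeks all arrays were scanned on 1 day. Signal over background limits the dim probes: APOE and PLTP at base 468 could not be tested, and NR1H3 at base 459 was tested in 23 of 27 comparisons. With 3 or 4 arrays a group, a difference that does not pass is not shown to be absent.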
